A study of Mus musculus with 24 samples.

Results

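Nuclear RNA was profiled in the hippocampus of mice that lack the DNA glycosylases Ogg1, Mutyh or both, and 7 genes of the oligodendrocyte lineage were followed through all 24 libraries. The genes were taken by symbol from the count tables, which list 55254 genes, and they are Pdgfra, Cspg4, Sox10, Olig1, Olig2, Gpr17 and Bmp4. The mice were males of the C57BL/6N background, aged 6 months, kept in home cages, and their nuclei were sorted on the neuronal nuclear protein NeuN into a NeuN+ (neuronal) and a NeuN- (mainly glial) fraction. Each fraction has 3 libraries of wild type (WT) mice, 3 of Mutyh-/-, 3 of Ogg1-/- and 3 of the double knockout (DKO), which lacks Ogg1 and Mutyh. No restriction of either knockout to a tissue or cell type is named. According to the methods, nuclei for RNA were pooled from 3 animals per genotype. Another number of animals per pool is given for the sorting, and it is unclear whether a replicate is a pool, a part of one or an animal. The SDs and tests below treat replicates as independent, and may measure technical spread only.

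Oligodendrocytes, the myelin-forming cells of the central nervous system, arise from precursor cells that persist and divide in the adult hippocampus. Precursors carry the receptor for platelet-derived growth factor encoded by Pdgfra and the proteoglycan NG2 encoded by Cspg4. Sox10, Olig1 and Olig2 are transcription factors of the whole lineage, and Olig2 and Sox10 are needed for its specification and differentiation. Gpr17, a G protein-coupled receptor, is transiently made by precursors that have committed to differentiate. Bmp4 is a secreted ligand of the BMP family that committed precursors also transcribe, and BMP signalling restrains oligodendrocyte differentiation. Pdgfra is also made by fibroblasts and Cspg4 by mural cells of blood vessels.

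The libraries held 56563586 to 96192142 counts each. Rbfox3, which encodes NeuN, was on average at 1459 CPM (counts relative to the library total, scaled with TMM factors) in NeuN+ and 90.0 CPM in NeuN- of WT. Gene counts showed a loss of neither gene in the libraries labelled as its knockout. Ogg1 averaged 3.29 CPM in WT and 3.46 CPM in the libraries labelled Ogg1-/- in NeuN+, and 6.14 and 6.25 CPM in NeuN-. Mutyh averaged more in the libraries labelled Mutyh-/- and DKO than in WT, at 10.9 and 9.94 against 1.23 CPM in NeuN+ and at 9.44 and 7.97 against 2.60 CPM in NeuN-. Each library labelled Mutyh-/- or DKO had at least 8.47 CPM of Mutyh in NeuN+ and 6.65 CPM in NeuN-. Libraries labelled WT or Ogg1-/- had at most 1.41 and 3.29 CPM. Mutyh counts thus set the libraries labelled Mutyh-/- and DKO apart from the others, while Ogg1 counts did not check the Ogg1 label. Genotypes are named here as labelled. The NeuN+ and NeuN- libraries were sequenced on different lanes, so lane and fraction cannot be told apart.

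The 7 genes lie on 6 chromosomes of the GRCm38 assembly (GENCODE vM21, whole gene spans). Pdgfra lies at chr5:75152292-75198215 on the plus strand and Cspg4 at chr9:56865033-56899870 on the plus strand. Sox10 lies at chr15:79154908-79165240 on the minus strand and Bmp4 at chr14:46383520-46390669 on the minus strand. Olig2, at chr16:91225457-91228677, and Olig1, at chr16:91269772-91271933, are neighbours on the plus strand, 41.1 kb apart. Olig1 has no intron, since its merged exons and its span both hold 2162 bases.

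RefSeq promoter windows (GRCm38.p6) were at hand for 4 of the 7 genes. The stretch from 250 to 101 bases before the RefSeq start, which lies outside every annotated transcript of the gene, is shown for these 4. Of them, Pdgfra, Cspg4 and Olig2 varied together across the NeuN- libraries (below) and Bmp4 did not. No window was at hand for Sox10, Olig1 and Gpr17. Letters are given 5′ to 3′ on the strand of the gene, and capitals mark the E-box CANNTG, the general motif of basic helix-loop-helix factors, the class to which Olig1 and Olig2 belong.
Pdgfra, chr5:75152001-75152150, plus strand: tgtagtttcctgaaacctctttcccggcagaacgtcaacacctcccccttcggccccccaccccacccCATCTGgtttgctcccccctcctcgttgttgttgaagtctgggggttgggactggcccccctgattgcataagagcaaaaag
Cspg4, chr9:56864854-56865003, plus strand: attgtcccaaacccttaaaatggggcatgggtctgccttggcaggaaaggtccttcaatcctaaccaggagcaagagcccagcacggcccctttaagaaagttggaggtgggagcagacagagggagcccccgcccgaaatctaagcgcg
Olig2, chr16:91225300-91225449, plus strand: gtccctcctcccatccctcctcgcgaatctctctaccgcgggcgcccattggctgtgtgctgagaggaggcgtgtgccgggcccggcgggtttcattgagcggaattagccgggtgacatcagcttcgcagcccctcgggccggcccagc
Bmp4, chr14:46390770-46390919, minus strand: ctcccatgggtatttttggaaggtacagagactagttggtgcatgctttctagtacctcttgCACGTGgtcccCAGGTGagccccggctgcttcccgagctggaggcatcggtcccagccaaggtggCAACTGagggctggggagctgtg
The E-box occurred 1 time in the window of Pdgfra, 3 times in that of Bmp4 and in neither of the others, and 49.3% of 32851 mouse promoter windows of the same place and length held at least 1. A pair of 6-base core motifs of SOX factors, ACAAAG and AACAAT, were searched on both strands and were found in none of the 4, against 10.4% and 6.31% of all windows. The Olig2 window held 14 CpG dinucleotides, more than 89.5% of all windows, and the other 3 held 4 or 5, more than 56.2% to 62.8% of all windows. The match to a motif is a description of the letters only.

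Gpr17, at chr18:31942997-31949636 on the minus strand, lies wholly inside Lims2 on the plus strand. In the tables, the count of a gene was at least as large as that of a gene nested inside it in 99.96% of 8545 such pairs in NeuN+ and in 99.95% of 8726 in NeuN-, on either strand. Counts thus behaved as if reads from the whole gene span, introns included, were counted for each gene they overlap without regard to strand. Gpr17 made up 74.5% to 83.2% of the Lims2 count in the 12 NeuN- libraries and 8.72% to 24.7% in the NeuN+ libraries. In NeuN-, counts were 13.1 to 22.1 times denser per kb in Gpr17 than in the rest of Lims2. In NeuN+ that ratio was 0.427 to 1.47, so the low Gpr17 counts there cannot be told apart from Lims2 reads. Of the other 6 genes, Pdgfra shares up to 1.3% of its span with each of 3 noncoding genes, Olig1 shares 7.26% with the long noncoding gene Gm15966, and Bmp4 shares 24.7% with the antisense gene Gm15222. Cspg4, Sox10 and Olig2 overlap no annotated gene.

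All 7 genes were far higher in NeuN- than in NeuN+ nuclei. In WT, the fitted log2 difference was 6.99 ± 0.15 (SE) for Pdgfra, 6.70 ± 0.13 for Cspg4, 7.36 ± 0.16 for Sox10, 6.66 ± 0.13 for Olig1, 6.90 ± 0.22 for Olig2 and 6.82 ± 0.22 for Gpr17. Bmp4 had the smallest difference, 4.40 ± 0.29. The edgeR quasi-likelihood test with Benjamini-Hochberg adjustment over 33523 genes called 7 of 7 genes higher in NeuN- in WT, and DESeq2 likewise called 7 (adjusted p under 0.05 and a log2 difference above 1). The edgeR adjusted p ranged from 4.65e-21 for Cspg4 and Olig1 to 3.43e-12 for Bmp4. Of all genes, 21.6% were called higher in NeuN- in WT. In Mutyh-/-, Ogg1-/- and DKO it was again 7 of 7, where 22.1%, 22.2% and 23.6% of all genes were called higher.

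Expressed as a share, the WT level in NeuN+ was 0.609% of the NeuN- level for Sox10, 0.788% for Pdgfra, 0.833% for Olig2, 0.880% for Gpr17, 0.957% for Cspg4 and 0.988% for Olig1. Bmp4 stood apart at 4.68%, on NeuN+ counts of only 4 to 14 per library in WT, and its share was 1.60% in Mutyh-/-, 2.95% in Ogg1-/- and 1.47% in DKO. The median over the 7 genes, 0.880%, lay near that of 13 myelin genes (0.593%) and below those of 6 microglial (4.01%), 6 astrocyte (4.89%) and 9 mural cell markers (6.05%), as the plot of NeuN+ levels against NeuN- levels shows. This median is the Gpr17 value, which in NeuN+ cannot be told apart from Lims2 reads. Other lists of the lineage had higher medians, at 5.61% for 12 further transcription factors, 14.4% for 11 other precursor genes and 5.18% for 8 genes of committed precursors. The low share was thus not found across the lineage lists. The 8 neuronal markers had a median of 893%. In bulk nuclei, fewer cells of a type and less RNA per cell cannot be told apart.

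**Figure D1:**
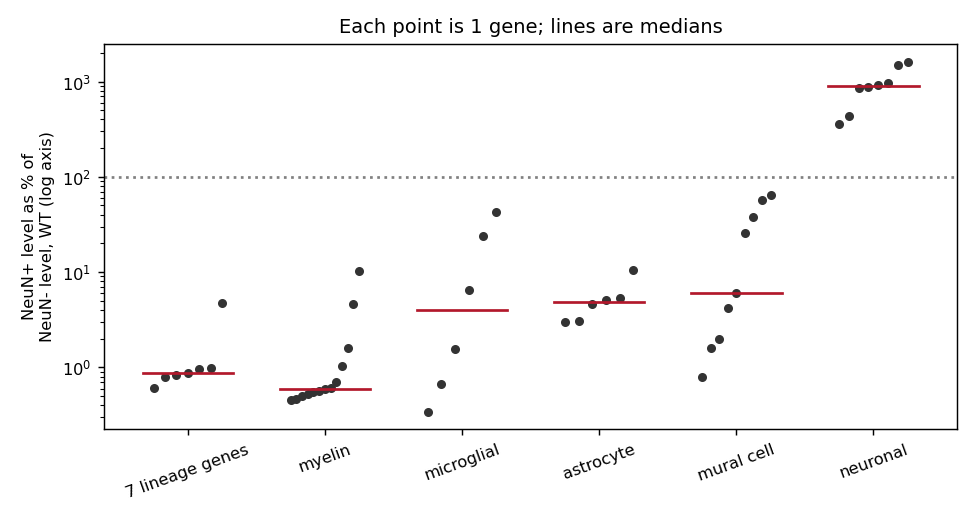
Mean CPM in the 3 NeuN+ libraries of WT as a percent of that in the 3 NeuN- libraries of WT, on a log axis, with 1 point per gene and a red line at the median of each list. Of the 7 lineage genes, 6 sit between 0.609% and 0.988% and Bmp4 at 4.68%, while the neuronal markers lie above the dotted line at 100%. Lists of further lineage and precursor genes are not drawn.

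The levels of the 7 genes in NeuN- spanned more than an order of magnitude per unit of length. Per kb of merged exons, Sox10 was highest in WT at 52.9 ± 5.26 CPM per kb (SD, n = 3), followed by Olig1 at 36.3 ± 3.87. Gpr17 (17.1 ± 1.57), Pdgfra (16.5 ± 1.32) and Olig2 (16.2 ± 1.62) overlapped library by library and could not be ordered. Cspg4 (12.7 ± 0.761) and Bmp4 (1.59 ± 0.157) lay below them without overlap. Because counts included introns, the same levels were also set per kb of the whole gene span, a choice made after the counts were seen. On that scale Olig1, which has no intron, was highest at 36.3 CPM per kb and Sox10 was next at 15.6 ± 1.55. Gpr17 (13.4 ± 1.23) and Olig2 (12.7 ± 1.27) overlapped, whereas Cspg4 (4.35 ± 0.261), Pdgfra (3.60 ± 0.287) and Bmp4 (0.501 ± 0.0494) followed in separate steps. The lowest place of Bmp4 held on both scales. Sox10 and Olig1 exchanged the top places, and Pdgfra moved from above Cspg4 to below it.

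**Figure D2:**
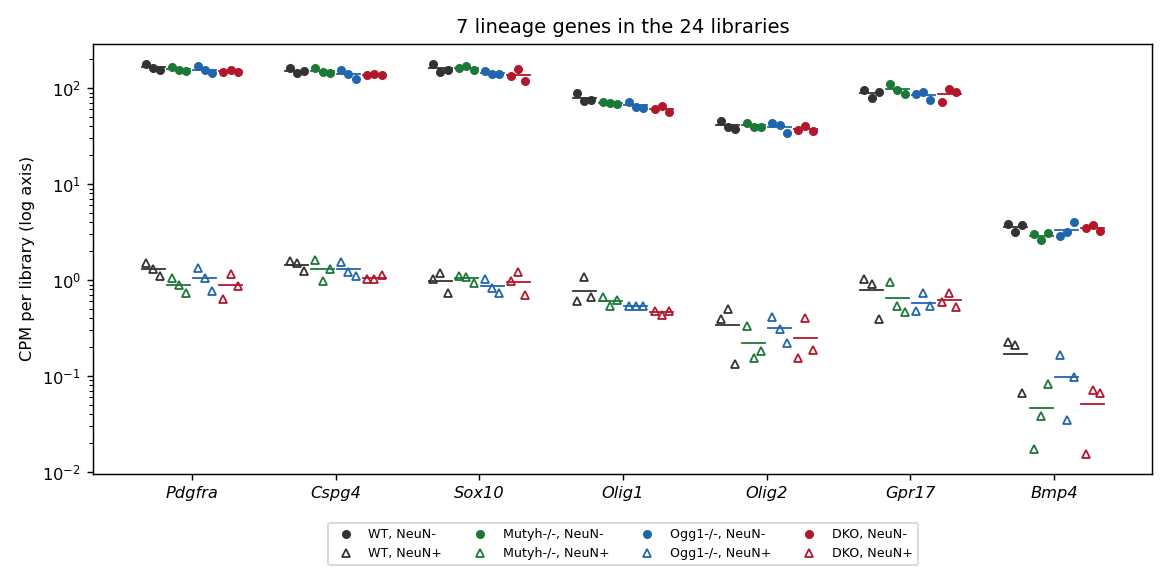
CPM of each gene in each of the 24 libraries, on a log axis. Filled circles are NeuN- and open triangles NeuN+ libraries, coloured by genotype, with a line at each group mean of 3 libraries. In each gene the 12 NeuN- libraries sit above the 12 NeuN+ libraries, and the genotypes lie close together in NeuN-.

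The question of the design is whether loss of Ogg1, Mutyh or both alters expression within a fraction. In NeuN-, none of the 7 genes was called in any knockout. A call needs an adjusted p under 0.05 over all tested genes and a log2 fold change beyond 0.5 in either direction. Calls by the edgeR test numbered 0 of 7 for Mutyh-/- (0.273% of 31863 genes), 0 of 7 for Ogg1-/- (0.229%) and 0 of 7 for DKO (0.116%). An unadjusted p under 0.05 was reached by 2 of 7 genes for Mutyh-/- (Olig1 and Bmp4), by 1 for Ogg1-/- (Olig1) and by 2 for DKO (Olig1 and Sox10), against 13.7%, 11.8% and 12.4% of all genes. DESeq2 also called 0 of 7 in each. The fold changes were below 0 for 6 of 7 genes in Mutyh-/- (median -0.01 on the log2 scale), 7 of 7 in Ogg1-/- (median -0.11) and 7 of 7 in DKO (median -0.14), while 51.2%, 49.8% and 48.5% of all genes were below 0. The 3 comparisons share the WT libraries.

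Among the lineage transcription factors, Olig1 had the lowest adjusted p. Its NeuN- level was 88.2, 73.1 and 74.4 CPM in WT, 72.2, 69.7 and 67.8 CPM in Mutyh-/-, 71.6, 64.2 and 62.7 CPM in Ogg1-/-, and 60.3, 65.6 and 56.2 CPM in DKO. Each of the 9 knockout libraries lay below the lowest WT library, with 72.2 CPM as the highest knockout and 73.1 CPM as the lowest WT value. For Mutyh-/-, Ogg1-/- and DKO taken singly, this held for 10.2%, 10.7% and 9.15% of all tested genes. The share for the 3 knockouts at once was not computed. WT replicate 1 stood above the other 2 WT libraries. Mutyh-/- had a log2 fold change of -0.18 ± 0.08 (SE, edgeR adjusted p of 0.348), Ogg1-/- one of -0.26 ± 0.08 (0.225) and DKO one of -0.38 ± 0.08 (0.0953). The 95% interval in DKO, -0.55 to -0.21, reaches past the fold limit of 0.5 by little. In DKO the adjusted p ranged from 0.00316 to 0.526 over 15 alternatives. It was under 0.05 in 1 of them, DESeq2's Wald test, where the fold change of -0.38 missed the fold limit. Without WT replicate 1 the log2 fold change was -0.29 in DKO, with an adjusted p of 0.29, -0.17 in Ogg1-/- (0.565) and -0.09 in Mutyh-/- (0.731).

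Olig2, the neighbour and close relative of Olig1, varied less between genotypes. It was at 45.6, 39.6 and 37.7 CPM in WT, 43.2, 39.6 and 39.8 CPM in Mutyh-/-, 43.6, 41.4 and 34.1 CPM in Ogg1-/-, and 36.6, 39.9 and 35.7 CPM in DKO. The libraries of each knockout overlapped those of WT. The log2 fold changes were -0.01 ± 0.09, -0.05 ± 0.09 and -0.14 ± 0.09 (SE), with edgeR adjusted p of at least 0.559. The ratio of Olig1 to Olig2 counts within a library does not depend on scaling between libraries. WT had a ratio of 1.92 ± 0.0653 (SD, n = 3), Mutyh-/- one of 1.71 ± 0.0455, Ogg1-/- one of 1.68 ± 0.146 and DKO one of 1.62 ± 0.0421. The highest knockout ratio, 1.84 in an Ogg1-/- library, and the lowest WT ratio, 1.85, were nearly equal. This ratio was chosen after its values were seen and is given without a test. Ratios of other member pairs were also computed, and in none of them did all knockout libraries lie on the same side of WT. How often gene pairs in general separate in this way was not computed.

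**Figure D3:**
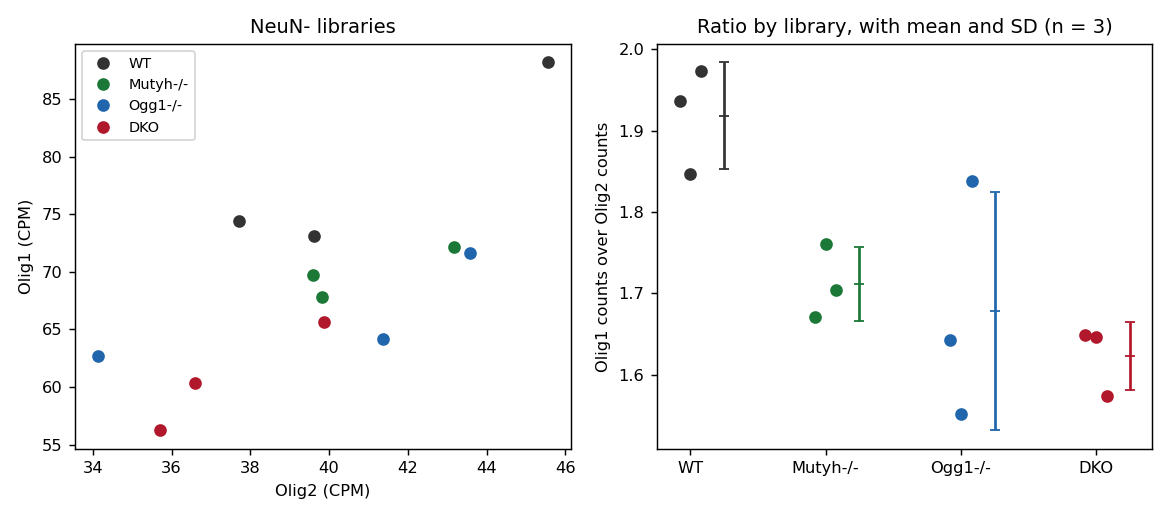
Left, CPM of Olig1 against CPM of Olig2 in the 12 NeuN- libraries, coloured by genotype, with axes that do not start at 0. Right, the ratio of Olig1 to Olig2 counts in each library with the mean and SD of 3 libraries. The 3 WT libraries lie between 1.85 and 1.97 and the 9 knockout libraries between 1.55 and 1.84.

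Sox10 was at 179.4, 148.6 and 156.1 CPM in NeuN- of WT, 163.1, 168.7 and 153.9 CPM in Mutyh-/-, 150.1, 140.8 and 141.8 CPM in Ogg1-/-, and 134.1, 158.6 and 117.8 CPM in DKO. DKO replicate 2 lay within the WT range and DKO replicate 3 was the lowest of the 12 libraries. The log2 fold change was 0.00 ± 0.09 (SE) in Mutyh-/-, -0.17 ± 0.09 in Ogg1-/- and -0.24 ± 0.09 in DKO (edgeR adjusted p of 0.995, 0.529 and 0.333). Without DKO replicate 3 the value in DKO was -0.15 (adjusted p of 0.727).

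The markers of uncommitted precursors showed small differences. Pdgfra was at 180.4, 161.0 and 155.2 CPM in NeuN- of WT, 164.3, 153.9 and 151.5 CPM in Mutyh-/-, 168.6, 154.4 and 144.1 CPM in Ogg1-/-, and 148.9, 155.0 and 147.6 CPM in DKO. Cspg4 was at 161.0, 142.9 and 150.7 CPM in WT, 162.9, 146.8 and 144.1 CPM in Mutyh-/-, 154.7, 138.8 and 125.4 CPM in Ogg1-/-, and 135.8, 141.0 and 136.5 CPM in DKO. The 3 DKO libraries lay just below the lowest WT library for both genes, and the single knockouts overlapped WT. In DKO both log2 fold changes were -0.14 ± 0.07 (SE), with edgeR adjusted p of 0.411 for Pdgfra and 0.454 for Cspg4. Their 95% intervals, -0.29 to 0.00 and -0.30 to 0.02, hold no change as large as the fold limit.

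Gpr17 and Bmp4, the genes of committed precursors, did not pass the test in NeuN- of any knockout. Gpr17 was at 94.7, 79.4 and 91.9 CPM in NeuN- of WT, 111.3, 96.1 and 86.0 CPM in Mutyh-/-, 87.8, 90.9 and 75.7 CPM in Ogg1-/-, and 71.0, 98.0 and 91.4 CPM in DKO. It had the only positive fold change of the 7 genes in Mutyh-/-, 0.13 ± 0.12 on the log2 scale, but its libraries overlapped WT in each knockout and the edgeR adjusted p was 0.683. Bmp4 was the scarcest, at 3.80, 3.18 and 3.78 CPM in WT, 3.02, 2.62 and 3.10 CPM in Mutyh-/-, 2.89, 3.17 and 4.00 CPM in Ogg1-/-, and 3.51, 3.75 and 3.28 CPM in DKO. Its 3 Mutyh-/- libraries lay just below the lowest WT library. The log2 fold change of Bmp4 in Mutyh-/- was -0.31 ± 0.13 (SE, edgeR adjusted p of 0.323), and in DKO it was -0.04 ± 0.13. Lims2, the host gene of Gpr17, had a log2 fold change of 0.10 in Mutyh-/-, and -0.05 after the Gpr17 counts were taken out.

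Counted over the 7 genes, all 3 knockout libraries lay below all 3 WT libraries for 2 genes in Mutyh-/- of NeuN- (Olig1 and Bmp4), 1 in Ogg1-/- (Olig1) and 3 in DKO (Pdgfra, Cspg4 and Olig1). The same held for 10.2%, 10.7% and 9.15% of all tested genes. Whether Sox10 joined them in Ogg1-/- depended on the scaling. None of the 7 lay wholly above WT, against 9.02%, 9.12% and 7.8% of all genes.

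In NeuN+ nuclei, the 7 genes together summed to 3.86 to 6.69 CPM per library, against 587.9 to 753.1 CPM in NeuN-. Counts were low enough that counting error mattered. Bmp4 had 1 to 14 counts per library, Olig2 8 to 31, Gpr17 24 to 64 and Olig1 28 to 66, while Sox10, Pdgfra and Cspg4 had 41 to 106. The exact 95% Poisson interval of the 14 Bmp4 counts of WT replicate 1 was 7.65 to 23.5 counts, and it covers counting error only.

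Calls by the edgeR test in NeuN+ numbered 0 of 7 for Mutyh-/- (0.428% of 30132 genes), 0 of 7 for Ogg1-/- (0.574%) and 0 of 7 for DKO (0.302%). DESeq2 also called 0 of 7 in each. An unadjusted p under 0.05 was reached by 2 of 7 genes for Mutyh-/- (Pdgfra and Bmp4), by 1 for Ogg1-/- (Olig1) and by 4 for DKO (Pdgfra, Cspg4, Olig1 and Bmp4), against 18.7%, 12.3% and 13.5% of all genes. The fold changes were below 0 for 6 of 7, 7 of 7 and 7 of 7 genes, with medians of -0.34, -0.34 and -0.47 on the log2 scale, while 51.9%, 47.8% and 50.1% of all genes were below 0.

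Olig1 was again the gene with the lowest p in DKO. It was at 0.600, 1.07 and 0.661 CPM in NeuN+ of WT, 0.666, 0.542 and 0.628 CPM in Mutyh-/-, 0.541, 0.533 and 0.539 CPM in Ogg1-/-, and 0.477, 0.433 and 0.471 CPM in DKO. The DKO libraries, with 31, 30 and 35 counts, lay below each WT library. The log2 fold change was -0.77 ± 0.22 (SE) with an edgeR adjusted p of 0.148. Its 95% interval ran from -1.25 to -0.29. WT replicate 2 stood above the other 2 WT libraries, and without it the log2 fold change was -0.46 in DKO, inside the fold limit (edgeR adjusted p of 0.493), and -0.25 instead of -0.55 in Ogg1-/- (adjusted p of 0.761).

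Pdgfra was at 1.49, 1.31 and 1.11 CPM in NeuN+ of WT, 1.05, 0.891 and 0.739 CPM in Mutyh-/-, 1.34, 1.04 and 0.772 CPM in Ogg1-/-, and 0.631, 1.17 and 0.862 CPM in DKO. Only the Mutyh-/- libraries lay wholly below WT, with a log2 fold change of -0.55 ± 0.24 (SE, edgeR adjusted p of 0.241). Bmp4 had the largest fold changes, -1.73 ± 0.68 in Mutyh-/- and -1.66 ± 0.65 in DKO, on 1, 2 and 6 counts in Mutyh-/-, 1, 5 and 5 in DKO and 14, 13 and 4 in WT. The low WT library overlapped both knockouts, and the edgeR adjusted p values were 0.192 and 0.275. Without replicate 3, which is the low WT library and the high Mutyh-/- library, Bmp4 was called lower in Mutyh-/- (log2 fold change -2.88, edgeR adjusted p of 0.0451). This was the only call of any of the 7 genes against WT among the alternatives.

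All 3 knockout libraries of NeuN+ lay below all 3 of WT for 1 gene in Mutyh-/- (Pdgfra), 1 in Ogg1-/- (Olig1) and 2 in DKO (Cspg4 and Olig1), against 10.8%, 10.2% and 9.49% of all genes. Myelin genes, which mark mature oligodendrocytes, had lower median fold changes in DKO of NeuN+ too (-0.34 over 12 tested genes, 11 of them below 0), as did fibroblast markers (-0.39, 7 of 7 below 0), astrocyte markers (-0.33, 6 of 6 below 0) and choroid plexus markers (-0.46, 3 of 4 tested genes below 0). Microglial markers, by contrast, had a median of -0.01 (3 of 5 tested genes below 0). Mural cell and endothelial markers had medians of -0.15 and -0.19. Of all genes, 50.1% were below 0 in DKO. The other knockouts differed from this. In Ogg1-/-, medians were -0.03 for myelin genes, -0.295 for fibroblast, -0.07 for astrocyte, -0.61 for choroid plexus, -0.03 for microglial, 0.07 for mural cell and 0.065 for endothelial markers. In Mutyh-/- they were, in the same order, -0.12, -0.11, -0.29, -0.93, -0.06, 0.02 and -0.10. None of the genes in these lists was called in DKO. The summed myelin level of the DKO libraries, 159.3 to 177.3 CPM, overlapped that of WT, 165.0 to 168.4 CPM. Fibroblast markers summed to 12.9 to 13.0 CPM in NeuN+ of WT. They lay below this in Mutyh-/- (10.9 to 12.7 CPM), Ogg1-/- (10.2 to 11.9 CPM) and DKO (6.93 to 10.4 CPM). By share, the highest gene of that list stood in NeuN+ of WT at 412% of its NeuN- level, against a list median of 11.0%. The NeuN+ sum is therefore not a measure of fibroblasts alone and is not set against Pdgfra. The part of carried-over glial RNA or nuclei in the NeuN+ values was not tested.

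**Figure D4:**
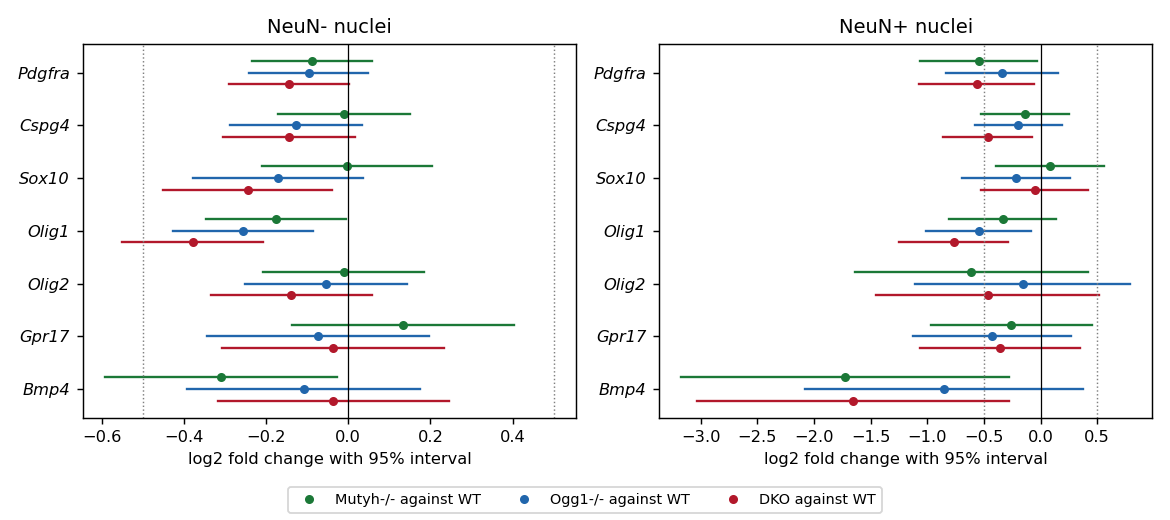
Fitted log2 fold change of each gene against WT with its 95% interval, in NeuN- (left) and NeuN+ (right) nuclei, coloured by knockout. Dotted lines mark the fold limit of 0.5, and the 2 axes differ in scale. Intervals are wider in NeuN+, widest for Bmp4, and the Olig1 values move from -0.18 in Mutyh-/- to -0.26 in Ogg1-/- and -0.38 in DKO in NeuN-.

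The knockouts were also compared with each other. In NeuN-, the edgeR test called 0 of 7 genes between DKO and Ogg1-/-, 0 of 7 between DKO and Mutyh-/- and 0 of 7 between Ogg1-/- and Mutyh-/-, with 0.132%, 0.122% and 0.521% of all genes called. In NeuN+ these numbers were again 0 of 7 in each, with 0.216%, 0.139% and 0.485% of all genes called. At an unadjusted p under 0.05, the 6 comparisons held 2 genes, Olig1 (log2 fold change -0.20 ± 0.08, SE) and Sox10, both lower in DKO than in Mutyh-/- of NeuN-, and DESeq2 called none. Departure from additivity, the effect in DKO minus both single effects, was called for 0 of 7 genes in NeuN- and 0 of 7 in NeuN+ (0.122% and 0.159% of all genes), and none had an unadjusted p under 0.05. For Olig1 in NeuN- it was 0.05, with a 95% interval of -0.19 to 0.30 on the log2 scale.

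Whether a knockout acted differently in the 2 fractions was tested on all 24 libraries. The edgeR test called 0 of 7 genes for Mutyh-/-, 0 of 7 for Ogg1-/- and 0 of 7 for DKO, where 0.0209%, 0.0537% and 0.0567% of all genes were called, and DESeq2 called none. At an unadjusted p under 0.05 there were Pdgfra and Bmp4 for Mutyh-/- and Bmp4 for DKO. The Bmp4 effect of DKO was 1.62 ± 0.57 (SE) higher in NeuN- than in NeuN+ on the log2 scale, with an adjusted p of 0.366, and it rests on the low NeuN+ counts given above.

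Across the 12 NeuN- libraries, 6 of the 7 genes varied together. The Pearson r of log2(CPM + 0.5) over the 15 pairs without Bmp4 ranged from 0.358 (Olig1 and Gpr17) to 0.905 (Pdgfra and Olig2), with a median of 0.683. Bmp4 had r between -0.348 and 0.0247 with the other 6. With deviations from the genotype means in place of the levels, r was 0.946 for Pdgfra and Olig2, 0.895 for Pdgfra and Cspg4 and 0.876 for Sox10 and Olig1. The libraries share depth, sorting and scaling between genes, so these values describe the 12 libraries and carry no test. The r over gene pairs in general was not computed, so the likeness is not shown to be particular to these genes.

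**Figure D5:**
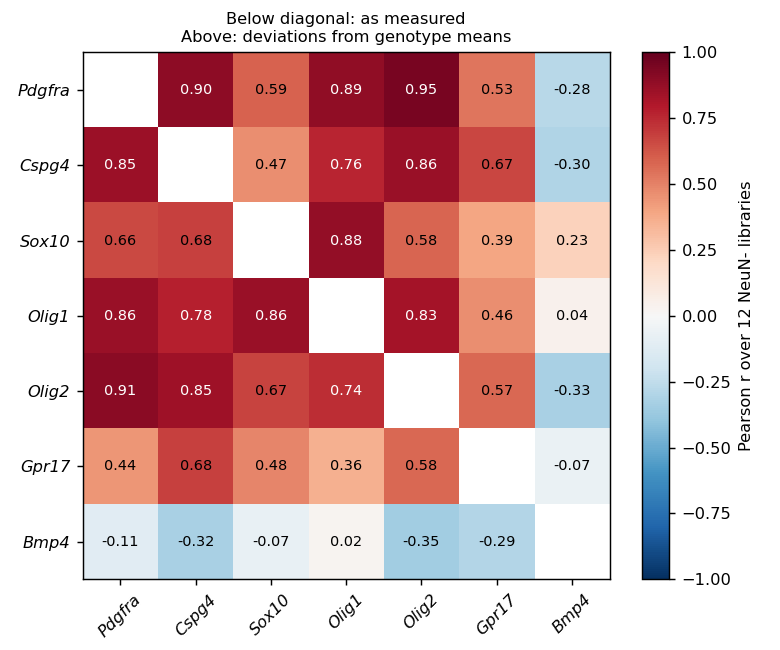
Pearson r between the 7 genes over the 12 NeuN- libraries, as measured below the diagonal and as deviations from the genotype means above it. Below the diagonal, the 5 genes from Pdgfra to Olig2 have r of at least 0.662 with each other, while Bmp4 has no r above 0.0247.

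Among 20824 genes with a mean of at least 1 CPM in NeuN-, the genes most like each member were mostly outside the lineage lists. Sox10 was most like App (r = 0.964), Fa2h (0.960), which makes the hydroxylated fatty acids of myelin lipids, and Prox1 (0.953). Olig1 was most like Eif3g (0.953), Rmi1 (0.944) and Gm10791 (0.944). Pdgfra was most like Rmi1 (0.935), Olig2 (0.905) and Gm42803 (0.892), which overlaps it and shares its reads. Lims2 led for Gpr17 (0.987) because its count contains that of Gpr17, followed by 4930588A03Rik (0.927) and Rpn1 (0.924). For Cspg4 they were Gtf3c1 (0.933), Fam32a (0.933) and Sympk (0.929), for Olig2 Lnx1 (0.915), Gm43169 (0.914) and Jun (0.913), and for Bmp4 Slco5a1 (0.910), Acads (0.906) and Iglon5 (0.890).

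Other genes of the lineage showed the same lack of calls in NeuN-. The edgeR test called 0 of 12 further lineage transcription factors, 0 of 11 other precursor genes and 0 of 8 genes of committed precursors in each knockout. In DKO, medians were -0.05, 0.00 and -0.02 on the log2 scale, against 0.01 over all genes. An unadjusted p under 0.05 was reached by 4, 0 and 0 genes, against 12.4% of all genes. The summed level of the lineage transcription factors lay above WT (2329 to 2509 CPM) in Mutyh-/- (2568 to 2734 CPM) and overlapped WT in the other knockouts. Of the factors that act with Sox10 in differentiation, Myrf was at -0.24 ± 0.08 (SE) and Sox8 at -0.22 ± 0.09 in DKO (edgeR adjusted p of 0.274 and 0.359). Tcf7l2, a factor of newly formed oligodendrocytes, was at 0.25 ± 0.10 (0.359). In NeuN+ likewise 0 were called in these 3 lists, and Itpr2 in Mutyh-/- had an adjusted p of 0.0466 with a log2 fold change of 0.28, under the fold limit.

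In NeuN-, median fold changes of the myelin genes lay further below 0 than those of the 7 genes. The order was reversed in NeuN+, in Mutyh-/- (-0.12 for myelin genes against -0.34), Ogg1-/- (-0.03 against -0.34) and DKO (-0.34 against -0.47). In NeuN-, 13 of 13 were below 0 in Ogg1-/- (median -0.24) and 13 of 13 in DKO (median -0.25), and 8 of 13 in Mutyh-/- (median -0.06). Over all genes, 49.8%, 48.5% and 51.2% were below 0 in Ogg1-/-, DKO and Mutyh-/-. No myelin gene was called. An unadjusted p under 0.05 was reached by 7, 7 and 1 of them in Ogg1-/-, DKO and Mutyh-/-, against 11.8%, 12.4% and 13.7% of all genes. Mbp, myelin basic protein, was at -0.10 ± 0.08 (SE) in DKO with an edgeR adjusted p of 0.650. The summed level of the 13 genes was 7583 to 8420 CPM in WT, 6916 to 8384 CPM in Mutyh-/-, 6363 to 7133 CPM in Ogg1-/- and 5655 to 7090 CPM in DKO. The Ogg1-/- and DKO ranges lay below that of WT, whereas the sum of the 7 lineage genes overlapped WT in each knockout (647.8 to 753.1 CPM in WT, 588.5 to 662.0 CPM in DKO). How often summed lists separate in this way was not computed.

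The ligands that act on these cells were not called either. Of 4 PDGF ligands 0 were called in NeuN- or NeuN+ in any knockout. Pdgfa, the main ligand of the receptor encoded by Pdgfra on precursors, was at -0.21 ± 0.10 (SE) in DKO of NeuN- (edgeR adjusted p of 0.394). Of 23 BMP signalling genes in NeuN-, and of the 22 tested in NeuN+, 0 were called in any knockout. In DKO of NeuN- 16 were above 0 (median 0.04), while 48.5% of all genes were below 0. The summed level of the 23 genes in NeuN- lay above WT (828.1 to 888.1 CPM) in Ogg1-/- (902.8 to 912.9 CPM) and DKO (896.2 to 955.6 CPM). It overlapped WT in Mutyh-/-. The receptor gene Bmpr1b was at 0.32 ± 0.09 and Smad6, an inhibitor of the pathway, at 0.44 ± 0.12 in DKO, with edgeR adjusted p of 0.212 and 0.204. Id2, a target of BMP signals, was at -0.09 ± 0.09 (0.711). Of 5 cell division genes 0 were called in NeuN-, and of the 2 that could be tested in NeuN+ likewise 0. The sum of the 5 genes in NeuN- lay above WT (6.58 to 9.33 CPM) in Ogg1-/- (9.65 to 10.6 CPM) and overlapped WT in the other knockouts.

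Among the markers of other cell types, 1 gene was called in NeuN- in any knockout. This was Aldh1l1, an astrocyte enzyme, higher in Ogg1-/- (log2 fold change 0.52, edgeR adjusted p of 0.0483). Summed levels of some lists nonetheless lay apart from WT. Single tested genes lay wholly below WT in 10.2%, 10.7% and 9.15% of cases in Mutyh-/-, Ogg1-/- and DKO. They lay wholly above it in 9.02%, 9.12% and 7.8% of cases. The share for summed lists was not computed. Fold changes below 0 were found for 51.2%, 49.8% and 48.5% of all genes. Astrocyte markers were above 0 for 6 of 6 genes in Ogg1-/- (median 0.27) and in DKO (median 0.19), and their sum was 871.0 to 970.7 CPM in WT, 1025 to 1168 CPM in Ogg1-/- and 980.7 to 1097 CPM in DKO. The Mutyh-/- sum overlapped WT. Neuronal markers were below 0 for 8 of 8 genes in each knockout, and summed to 452.5 to 540.0 CPM in WT and 378.6 to 458.8 CPM in DKO, with sums that overlapped WT in each knockout. Fibroblast markers, of interest because fibroblasts make Pdgfra, were above 0 for 7 of 7 genes in each knockout. They summed to 24.8 to 31.6 CPM in WT, 33.7 to 50.4 CPM in Mutyh-/-, 35.7 to 38.6 CPM in Ogg1-/- and 32.8 to 73.8 CPM in DKO, so that each knockout lay above WT. Mural cell markers, of interest for Cspg4, summed to 102.5 to 109.8 CPM in WT and lay below this in Mutyh-/- (92.0 to 101.2 CPM), while Ogg1-/- (107.2 to 112.8 CPM) and DKO (106.9 to 120.2 CPM) overlapped WT. Choroid plexus markers differed most between libraries of one group, from 7.15 to 213.1 CPM in DKO and from 33.2 to 60.1 CPM in WT, and lay below WT in Mutyh-/- (17.7 to 22.0 CPM). Microglial and endothelial markers overlapped WT in each knockout, and no marker of these lists had a count of 0 in all 3 libraries of a group. The part of these marker levels in the values of the 7 genes was not tested.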

How the data were processed

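Hippocampal nuclei of 4 genotypes were sorted for NeuN, and RNA was extracted and converted to stranded total-RNA libraries, 3 per genotype and fraction. Per the submitters' processing notes, the authors used HISAT2 2.1.0, SAMtools 1.10, featureCounts and edgeR 3.42.4 with GRCm38, and the tables name Ensembl release 102. The authors deposited raw counts per gene, without normalization. The settings for strand and overlapping genes are not given in the sources used here.

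The analysis ran in R 4.3.3 on edgeR 4.0.16. Each fraction was fitted with all 4 genotypes, after filterByExpr (30132 genes left for NeuN+, 31863 for NeuN-), with TMM factors and the quasi-likelihood test with Benjamini-Hochberg adjustment. All 7 genes passed the filter in each fit. Fractions and their interaction with genotype were fitted on all 24 libraries (33523 genes). The biological coefficient of variation was 0.0823, 0.124 and 0.105. CPM were scaled over the 24 libraries, and this scale differs from that within a fraction by a factor that varied by at most 2.98% between libraries. Total counts of 56563586 to 96192142 per library give counting errors that are small for the 7 genes in NeuN- and large in NeuN+. No pair of libraries of 1 group held equal counts, since at least 94.9% of detected genes differed.

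Levels between genes were planned per kb of merged exons, and the whole gene span was added once nested genes had shown that counts include introns. Positions came from GENCODE vM21 by symbol. The members, lists and thresholds were chosen with earlier results of these data known. Named besides the members are Mutyh, Ogg1, Rbfox3, overlapping genes, list genes past the thresholds, the 3 genes most like each member, and list genes with small p. Other list genes (Mbp, Myrf, Sox8, Tcf7l2, Pdgfa, Bmpr1b, Smad6 and Id2) were named for their role after their values were seen, and 1 myelin gene is counted in its list but not reported by itself here. Alternatives were DESeq2 1.42.0 size factors and Wald test, other count filters, fits of 2 genotypes, a replicate block and fits without 1 library or replicate. The scripts were tested on simulated counts.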

Additional observations from a re-analysis of the deposited data

How the results depend on the processing

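In the comparisons with WT, between knockouts, for additivity and for the difference between fractions, 0 of 7 genes were called under each alternative that was run, with 1 exception. Without 1 replicate number in both groups, calls in Mutyh-/- of NeuN+ ranged from 0 to 1 (Bmp4, without replicate 3), where 1402 of all genes were called instead of 129. With at least 10 counts in every library, only 5 genes could be tested between fractions (Olig2 and Bmp4 fell out), and 5 of 5 were called.

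The replicate numbers were not taken to pair the samples, since same-numbered NeuN+ and NeuN- libraries of a genotype had correlated deviations over 0.1 in 9 of 12 cases and not in all (lowest 0.00283), and libraries of different genotypes in 6 of 18 (NeuN+) and 7 of 18 (NeuN-). As a hint only, 10 of 12 NeuN+ libraries correlated best with the NeuN- library of their own number. A fit with the replicate number as a block called 0 of 7 genes against WT in each fraction, and the Olig1 value in DKO of NeuN- was -0.38 with an adjusted p of 0.0521. With pairs of NeuN+ and NeuN- libraries as the block, 7 of 7 genes were called between fractions in each genotype, and 0 of 7 for a difference of the knockout effect between fractions, where 31, 26 and 53 of all genes were called for Mutyh-/-, Ogg1-/- and DKO, instead of 7, 18 and 19.

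The place of Olig1 among the 7 genes by WT NeuN- level was 2 per kb of exons, 1 per kb of gene span and 5 without a length correction. The median r between members was 0.662, and 0.572 over deviations from genotype means. The sign of Sox10 in Mutyh-/- of NeuN- (-0.0029 on the log2 scale) turned with DESeq2 size factors (0.0019), the DESeq2 Wald test (0.0020) and no count filter (0.0014), and the value lies far inside its error. Lims2 in Mutyh-/- of NeuN- turned to -0.047 when the Gpr17 counts were taken out.

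Leaving out a library or a replicate number turned the sign of 13 fold changes whose unadjusted p in the reported fit was 0.150 (Olig1 in Mutyh-/- of NeuN+) or more. In NeuN+ these were Cspg4 (-0.32 to 0.044), Sox10 (-0.089 to 0.24) and Olig1 (-0.56 to 0.037) in Mutyh-/-, Olig2 in Ogg1-/- (-0.54 to 0.23) and Sox10 in DKO (-0.26 to 0.14). In NeuN- they were Cspg4 (-0.068 to 0.033), Sox10 (-0.084 to 0.078) and Olig2 (-0.066 to 0.070) in Mutyh-/-, Olig2 (-0.12 to 0.040), Gpr17 (-0.20 to 0.034) and Bmp4 (-0.26 to 0.034) in Ogg1-/-, and Gpr17 (-0.20 to 0.14) and Bmp4 (-0.16 to 0.046) in DKO. The causes were not tested. Depth limits the NeuN+ values of Bmp4 and Olig2.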
